A study of Mus musculus with 28 samples.

Results

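The glucocorticoid receptor gene Nr3c1 and 7 genes known as its targets, Tsc22d3, Fkbp5, Sgk1, Klf9, Zbtb16, Pik3ip1 and Errfi1, were followed in CD4+ T cells of the mouse small intestine. They were chosen by gene symbol from a table of 25124 genes, and 8 of 8 were listed and entered the tests, among 12182 genes that did. Live cells positive for CD45, CD90.2, TCRb and CD4 were sorted from the small intestinal lamina propria (SILP), the connective tissue under the gut epithelium. All 28 libraries came from T-bet-ZsGreen mice, which carry a fluorescent reporter of the transcription factor T-bet. Housing was specific-pathogen-free (SPF), where mice carry gut microbes, or germ-free (GF), where they carry none. In each housing, mice were given aCD3, an antibody to the CD3 chains through which the T cell receptor signals, or a control antibody of the same isotype. The groups were SPF isotype (n = 6), SPF aCD3 (n = 6), GF isotype (n = 10) and GF aCD3 (n = 6). A library's name joins its sex (F, M) to a number. GF aCD3 held 1 female and 5 male libraries and the other groups as many females as males. Ages, antibody dose and time of sampling were not used here. The labels do not say that each library is a separate animal, so the p-values measure the spread between these libraries.

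Levels are in TPM, each library's share after dividing reads by gene length, which is the genomic span, introns included, for 99.24% of genes. Ranks between genes in TPM therefore depend on their spans. Reads in genes ranged from 6765529 to 17860638 per library. Histone genes, of which 87 were listed, held 4.31% to 7.30% of summed TPM in SPF isotype, 24.1% to 27.1% in SPF aCD3, 4.05% to 9.54% in GF isotype and 5.66% to 26.3% in GF aCD3. The median tested gene moved by -0.35 on the log2 scale between the SPF groups and by -0.15 between the GF groups. Changes are therefore also given after median-of-ratios scaling, which brought those medians to -0.01 and -0.01. Sample numbers in the column names ran from 1 to 12 in SPF and in 2 ranges, 25 to 33 and 48 to 54, in GF, so housing and sample number cannot be told apart. The 9 CD4 T cell markers summed to between 1949 and 2617 TPM in every library and varied within groups.

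Glucocorticoids are steroid hormones that enter cells and bind the glucocorticoid receptor, a nuclear receptor held ready in the cytoplasm by heat shock protein 90 and its co-chaperones. The bound receptor moves to the nucleus and attaches to DNA at glucocorticoid response elements, where it raises some genes and represses others, among them many inflammatory cytokines. In T cells the hormone dampens activation, shapes survival and trafficking, and is made in the adrenal gland and also locally, including in the intestinal epithelium. Of the targets studied here, Tsc22d3 encodes the leucine zipper protein GILZ, Fkbp5 a co-chaperone that lowers hormone binding of the receptor, Sgk1 a serum- and glucocorticoid-induced kinase, Klf9 and Zbtb16 zinc finger transcription factors, Pik3ip1 an inhibitor of PI3 kinase, and Errfi1 a feedback inhibitor of the EGF receptor.

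The receptor's response element is an inverted repeat, and promoters of 6 of the 8 members were searched for its core. The letters searched were AGAACA on both strands (TGTTCT on the other), alone and as a palindrome of AGAACA, 3 bases and TGTTCT. RefSeq windows ran from 250 bases before to 50 after a start (build GRCm38.p6). Those of 6 of the 8 genes, found by symbol, were searched, 14 in all. Nr3c1 and Zbtb16 were not searched, so whether their promoters hold these letters is left unanswered here. The hexamer was present in 4 of the 14 windows, against 19.0% of all 32851 windows of that length. Of the 4, 3 were among the 6 windows of Sgk1 and 1 among the 3 of Tsc22d3. Fkbp5, Klf9, Pik3ip1 and Errfi1 had 0. The palindrome, which holds the hexamer, was present in 3 of 32851 windows, 1 of which belongs to Sgk1, at chr10:21993701-21993715. It lies 951 bases before the start of the Sgk1 transcript counted in the table. The 3 stretches below, each the 250 bases before a start, show that window and, for comparison, a start of Tsc22d3 with 1 hexamer and the start of the counted Tsc22d3 transcript with none; capitals mark the hexamer on either strand.
Sgk1 chr10:21993640-21993889 (plus strand): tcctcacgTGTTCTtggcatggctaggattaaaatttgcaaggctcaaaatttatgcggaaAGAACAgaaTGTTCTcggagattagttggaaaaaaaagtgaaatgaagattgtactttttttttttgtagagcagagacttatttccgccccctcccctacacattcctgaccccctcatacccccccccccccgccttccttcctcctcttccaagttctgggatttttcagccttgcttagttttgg
Tsc22d3 chrX:140600523-140600772 (minus strand): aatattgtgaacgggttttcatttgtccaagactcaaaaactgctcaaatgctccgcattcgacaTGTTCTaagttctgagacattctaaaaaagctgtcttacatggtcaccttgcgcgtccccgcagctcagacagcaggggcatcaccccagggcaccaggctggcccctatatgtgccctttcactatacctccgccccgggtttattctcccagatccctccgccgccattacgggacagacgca
Tsc22d3 chrX:140542669-140542918 (minus strand): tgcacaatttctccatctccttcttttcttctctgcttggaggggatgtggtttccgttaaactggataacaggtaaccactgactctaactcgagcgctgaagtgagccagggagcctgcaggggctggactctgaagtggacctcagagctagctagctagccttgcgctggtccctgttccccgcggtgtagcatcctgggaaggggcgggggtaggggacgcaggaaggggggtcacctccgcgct
A match describes these letters only. The table's Tsc22d3 entry spans 3139 bases of its short form, and the window with the hexamer lies 57854 bases before it, so reads from the first exons of longer forms are outside the counted span.

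In SPF mice, 7 of the 8 genes were lower after aCD3, and 6 of 8 showed no overlap between the isotype and aCD3 libraries, as the plot of TPM by library shows. Of all tested genes 50.7% were called lower in this comparison and 33.4% were lower with no overlap, so both were common. The largest ratio of mean TPM was that of the receptor gene itself, 5.63-fold lower, followed by Zbtb16 at 4.04-fold, Pik3ip1 at 3.71-fold and Tsc22d3 at 3.28-fold. Klf9 was 2.07-fold, Errfi1 1.76-fold and Sgk1 1.51-fold lower. After median-of-ratios scaling 6 of 8 were called lower, against 29.8% of all genes, and Fkbp5 was called higher, against 30.2%. The median log2 fold change over the 8 genes was -0.94 against -0.35 over all tested genes, and -0.68 against -0.01 after that scaling.

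**Figure D1:**
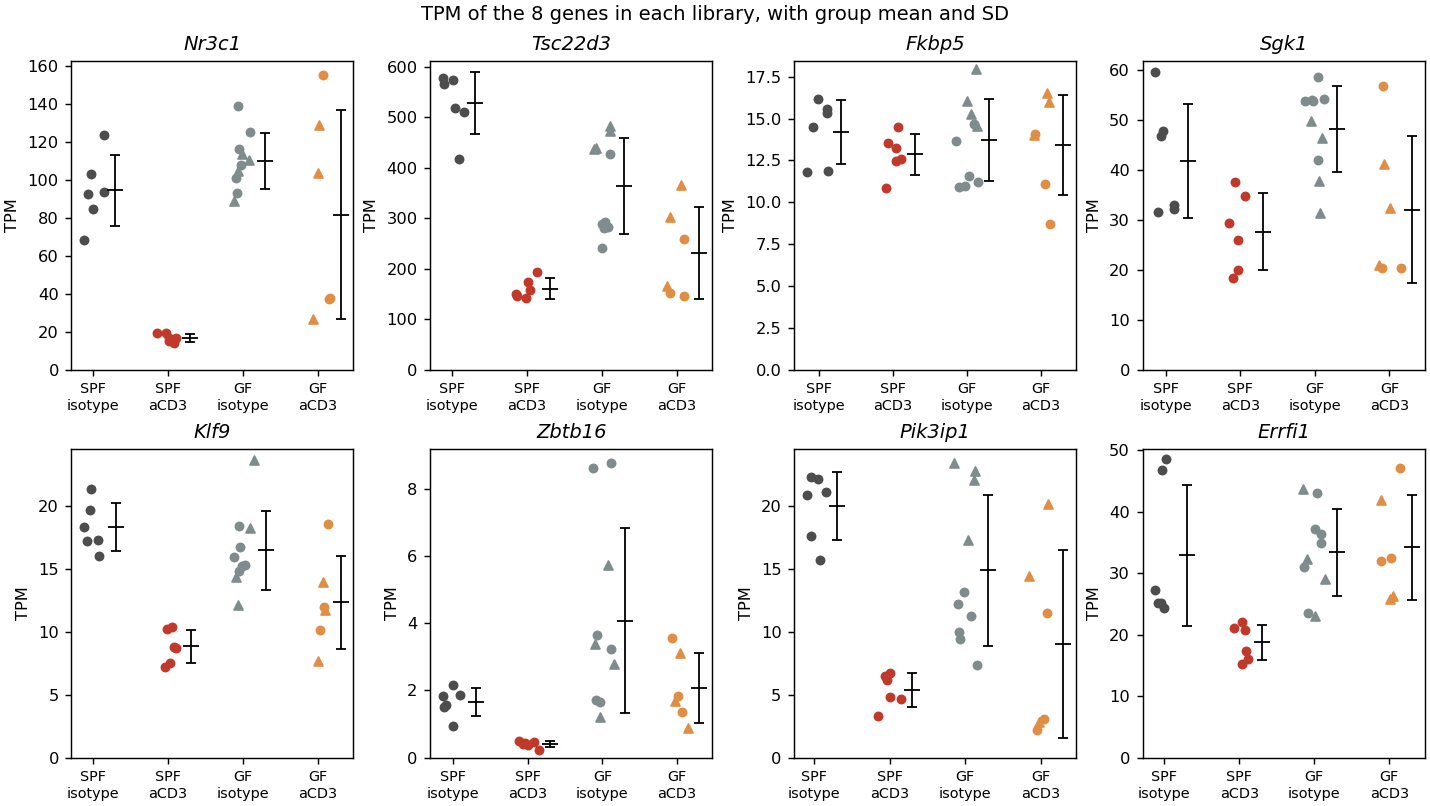
TPM of each of the 8 genes (vertical axes, linear from 0) in the 28 libraries by group; points are libraries, triangles GF libraries with sample numbers 48 to 54, and black bars the group mean and SD. Nr3c1 lies between 14.1 and 19.5 TPM in SPF aCD3 and between 68.2 and 123.7 TPM in SPF isotype, while GF aCD3 spans 26.8 to 155.5 TPM.

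Nr3c1 (NM_001361212, mm10 chromosome 18, 39410545 to 39519421, minus strand) encodes the receptor. Its mean TPM over the 28 libraries exceeded that of 96.48% of listed genes. In SPF isotype its lowest, median and highest TPM were 68.2, 93.3 and 123.7, and in SPF aCD3 14.1, 16.5 and 19.5. Every aCD3 library was therefore below every isotype library. The means were 94.4 ± 18.5 (SD, n = 6) and 16.8 ± 2.22 TPM (n = 6), or -2.41 as a log2 fold change (SE 0.29, limma adjusted p = 1.40e-06). Scaled by median of ratios the change was -2.01 (limma adjusted p = 6.22e-07).

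In GF mice Nr3c1 had a lowest, median and highest TPM of 88.8, 109.3 and 139.0 in isotype, with a mean of 110.0 ± 14.8 (n = 10). The GF aCD3 libraries were spread over 103.6 in F1, 37.6 in M1, 37.4 in M2, 155.5 in M3, 129.1 in M4 and 26.8 in M5. Thus 3 of 6 lay below every GF isotype library and 1 above, and the mean of 81.7 TPM came with an SD of 54.9. All 6 lay above every SPF aCD3 library. The GF change of -0.68 did not pass (SE 0.27, limma adjusted p = 0.0843); without F1, M3 or M4 it was -0.83, -0.91 or -0.86 and passed (limma adjusted p = 0.0376, 0.0097 and 0.0195).

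Fkbp5 (NM_010220, chromosome 17, 28398753 to 28486149, minus strand) is often used as a readout of receptor activity, because its transcription rises with hormone and its protein then restrains the receptor. On TPM as deposited, its aCD3 effects were the smallest of the 8 genes in SPF and in GF; after median-of-ratios scaling Sgk1 in SPF and Errfi1 in GF moved less. Its lowest, median and highest TPM were 11.8, 14.9 and 16.2 in SPF isotype and 10.9, 12.9 and 14.5 in SPF aCD3. The groups overlapped, with means of 14.2 ± 1.91 and 12.9 ± 1.22 (n = 6 each); the log2 difference was -0.13 (SE 0.13, limma adjusted p = 0.405). Scaled by median of ratios the change was 0.26, at the threshold (limma adjusted p = 0.0499986), and it was 0.19, 0.24 and 0.13 under quantile normalization, voom and without Rn45s and histone genes, none of which passed. The GF means were 13.7 ± 2.45 (n = 10) and 13.4 ± 3.00 TPM (n = 6), with a change of -0.004 (limma adjusted p = 0.983).

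Tsc22d3 (NR_122039, chromosome X, 140539529 to 140542668, minus strand), whose protein GILZ binds and restrains activating transcription factors in T cells, was the most abundant member per length, above 99.06% of listed genes. Its lowest, median and highest TPM were 417.0, 542.9 and 578.7 in SPF isotype and 142.2, 153.9 and 194.5 in SPF aCD3. The groups did not overlap. The means fell from 527.8 ± 61.5 to 160.8 ± 20.1 TPM (n = 6 each; log2 fold change -1.71, SE 0.20, limma adjusted p = 9.70e-07), and the change was -1.30 after scaling (limma adjusted p = 1.63e-06). In GF isotype the mean was 364.2 ± 94.8 TPM (n = 10), and the libraries fell into a lower set between 240.4 and 427.4 TPM for sample numbers 25 to 33 and an upper one between 437.3 and 483.4 for 48 to 54. In GF aCD3 the values were 365.4 in F1, 145.4 in M1, 151.4 in M2, 259.9 in M3, 302.4 in M4 and 166.1 in M5, and 3 of 6 were below every GF isotype library.

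Sgk1 (NM_011361, chromosome 10, 21994666 to 21999902, plus strand) encodes a kinase that phosphorylates ion channel regulators and FOXO factors. Its lowest, median and highest TPM were 31.6, 39.9 and 59.7 in SPF isotype and 18.4, 27.7 and 37.5 in SPF aCD3, so the groups overlapped. In 4 of 6 aCD3 libraries it was below every isotype library. The log2 fold change of -0.58 passed (SE 0.23, limma adjusted p = 0.0263) but was -0.18 after scaling (limma adjusted p = 0.442), so a fall larger than the median gene's was not shown. Without SPF aCD3 F2 or F3 or without SPF isotype F2 the change was -0.50, -0.52 or -0.45 and did not pass (limma adjusted p = 0.0692, 0.0622 and 0.0841). In GF the mean was 48.2 ± 8.69 (n = 10) in isotype and 32.03 ± 14.8 TPM (n = 6) in aCD3.

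Klf9 (NM_010638, chromosome 19, 23141226 to 23168128, plus strand) encodes a Krüppel-like factor whose gene responds to glucocorticoid in many tissues. It had a lowest, median and highest TPM of 16.1, 17.8 and 21.4 in SPF isotype and 7.26, 8.81 and 10.4 in SPF aCD3. The groups did not overlap, and the fall of -0.98 (SE 0.15, limma adjusted p = 8.73e-06) was -0.60 after scaling (limma adjusted p = 0.000144). In GF aCD3 its 6 values ran from 7.67 to 18.6 TPM, 4 of them below every GF isotype library.

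Zbtb16 (NM_001033324, chromosome 9, 48651797 to 48835941, minus strand) encodes PLZF, known in lymphocytes as a factor of innate-like T cells. It was the lowest member, and reached 1 TPM in 20 of 28 libraries. In SPF isotype its lowest, median and highest TPM were 0.951, 1.70 and 2.16, and in SPF aCD3 0.226, 0.430 and 0.510, without overlap. The log2 fold change was -0.90 (SE 0.24, limma adjusted p = 0.00238) on the log2(TPM + 1) scale, which understates low genes, and -1.77 and -0.30 with pseudocounts of 0.1 and 5. After scaling it was -0.76 (limma adjusted p = 0.00424). In GF it was 4.07 ± 2.75 TPM (n = 10) in isotype and 2.06 ± 1.04 (n = 6) in aCD3, overlapping.

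Pik3ip1 (NM_178149, chromosome 11, 3330731 to 3342971, plus strand) encodes a membrane protein that restrains PI3 kinase in resting T cells. Its lowest, median and highest TPM were 15.7, 21.0 and 22.4 in SPF isotype and 3.35, 5.54 and 6.78 in SPF aCD3, without overlap. The fall was -1.73 (SE 0.36, limma adjusted p = 0.000228), and -1.37 after scaling (limma adjusted p = 0.00069). In GF aCD3 it was 20.2 in F1, 3.06 in M1, 2.22 in M2, 11.5 in M3, 14.4 in M4 and 2.84 TPM in M5. The libraries M1, M2 and M5 were again the lowest, below every GF isotype library and also below every SPF aCD3 library. The GF change of -0.87 did not pass (SE 0.34, limma adjusted p = 0.0776), but did without F1, M3 or M4 (-1.23, -1.01 and -1.07; limma adjusted p = 0.0132, 0.0289 and 0.0221).

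Errfi1 (NM_133753, chromosome 4, 150855070 to 150868889, plus strand) had a lowest, median and highest TPM of 24.3, 26.2 and 48.5 in SPF isotype and 15.2, 19.1 and 21.99 in SPF aCD3. The groups did not overlap, although 2 isotype libraries, M2 at 48.5 and M3 at 46.8 TPM, stood above the other 4. The log2 fold change was -0.73 (SE 0.14, limma adjusted p = 0.000121) and -0.33 after scaling (limma adjusted p = 0.0371). A fall was not shown in GF, where the means were 33.4 ± 7.09 (n = 10) in isotype and 34.2 ± 8.55 TPM (n = 6) in aCD3.

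Markers of other cells moved with the SPF comparison, in both directions. The summed TPM of 7 B and plasma cell markers ran from 95.7 to 272.4 in SPF isotype and from 2.51 to 8.97 in SPF aCD3, and that of 7 NK and innate-like lymphoid markers from 49.3 to 72.3 and from 17.7 to 26.97. For 6 stromal markers the ranges were 4.42 to 42.1 and 0.467 to 2.28, with Col1a2 at 0 in every SPF aCD3 library. Summed TPM of 3 endothelial markers (7.48 to 11.2 and 2.53 to 3.89, Kdr at 0 after aCD3) and 5 erythroid markers (2.29 to 10.2 and 0.716 to 1.28, with 4 hemoglobin genes at 0 after aCD3) were also lower without overlap. That of 4 mast cell markers was higher after aCD3, at 1.18 to 2.08 and 3.94 to 5.32, with Mcpt1 and Mcpt2 at 0 in both groups, and that of 2 CD8 T cell markers ran from 5.68 to 13.5 and from 9.75 to 23.8, overlapping. Their part in the changes of the 8 genes was not tested, and in bulk RNA fewer cells of a type and less RNA per cell cannot be told apart. The histone share also moved with it, at 5.51% ± 1.09 in SPF isotype and 25.7% ± 1.34 in SPF aCD3 (SD, n = 6 each); its part was not tested beyond the value without Rn45s and histone genes, with which 6 of 8 were called lower, Sgk1 was at -0.32 (limma adjusted p = 0.189) and Fkbp5 turned to 0.13.

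The response to aCD3 without gut microbes was read from GF aCD3 against GF isotype. That comparison alone does not show whether the response differs from that in SPF, which is compared directly below. Of the 8 genes 3 were called lower, against 4.61% of all tested genes: Sgk1 by -0.73 (SE 0.21, limma adjusted p = 0.0481), Tsc22d3 by -0.62 (SE 0.18, limma adjusted p = 0.0484) and Klf9 by -0.46 (SE 0.13, limma adjusted p = 0.0484). These lay at the threshold, since the lowest limma adjusted p of any gene in this comparison was 0.0481. After median-of-ratios scaling 0 of 8 passed in limma, against 9.65% of all genes called in either direction, with 5 of 8 at an unadjusted p under 0.05 against 33.1% of all genes. With array weights or no sex term 5 of 8 were called, Nr3c1 and Pik3ip1 added, while no filter, a pseudocount of 0.1 or only the 2 groups compared gave 0 calls. Zbtb16 (-0.42, limma adjusted p = 0.177) and Errfi1 (-0.12, limma adjusted p = 0.529) did not pass in either. Leaving out any of 25 of the 28 libraries gave 0 calls among the 8, and leaving out GF aCD3 F1, M3 or M4 gave 5. Within sample numbers 25 to 33 and 48 to 54 the change was -0.59 and -0.75 for Tsc22d3, -0.92 and -0.45 for Sgk1, -0.27 and -0.62 for Klf9 and -0.72 and -0.50 for Nr3c1, none of them past the threshold (limma adjusted p from 0.330 to 0.739).

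**Figure D2:**
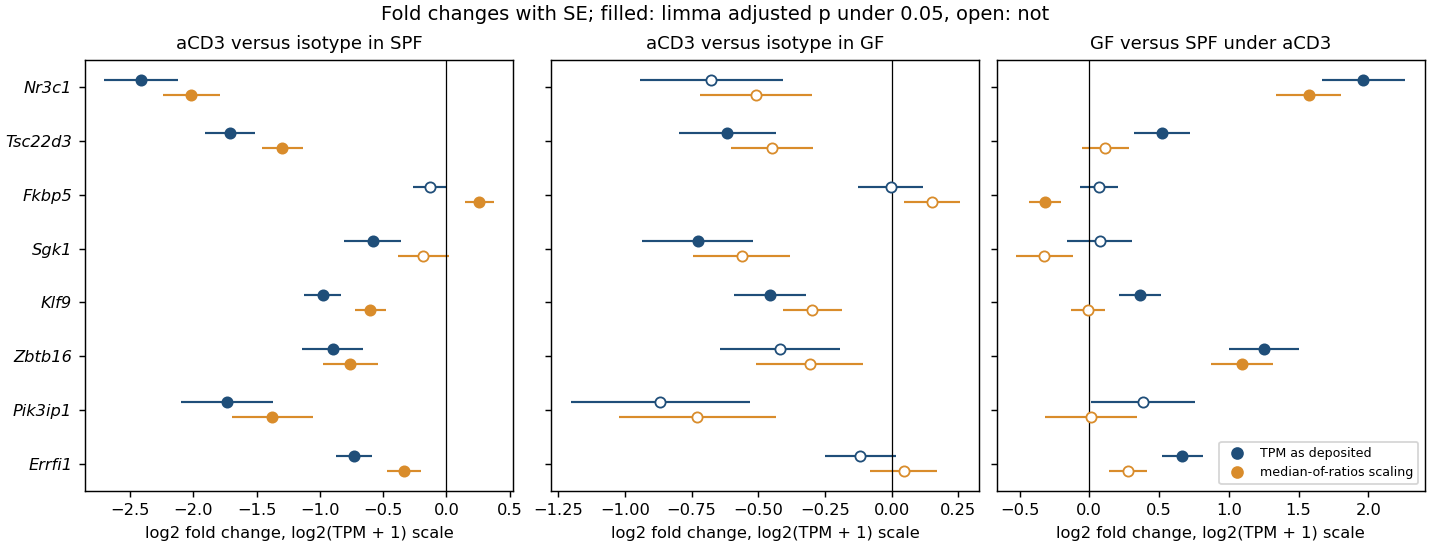
Log2 fold changes (horizontal axes, on the log2(TPM + 1) scale) with SE for the 8 genes in 3 comparisons, as deposited in blue and after median-of-ratios scaling in orange; filled points have a limma adjusted p under 0.05. Nr3c1 lies at -2.41 in SPF, at -0.68 in GF and at 1.96 in GF against SPF under aCD3.

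The histone share also varied among the GF aCD3 libraries. M1, M2 and M5, with 23.8%, 23.4% and 26.3% of TPM in histone genes, stood near or in the SPF aCD3 range of 24.1% to 27.1%, while F1, M3 and M4 held 5.66%, 7.79% and 6.71%, within the GF isotype range. M1, M2 and M5 had the 3 lowest Nr3c1, Tsc22d3, Pik3ip1, Sgk1 and Fkbp5 values of the group, for Fkbp5 by a narrow margin of 14.04 TPM in M5 to 14.06 in M3. Sgk1 stood at 20.5 (M1), 20.4 (M2) and 20.9 TPM (M5), below its 32.3 (F1), 56.8 (M3) and 41.3 TPM (M4). Klf9, Zbtb16 and Errfi1 were not ordered in this way: Klf9 was 11.998 TPM in M1 and 11.741 in F1, Zbtb16 1.82 in M2 and 1.68 in M4, and Errfi1 32.4 in M1 and 26.2 in F1. Summed markers of other cells parted the same libraries: in M1, M2 and M5 B and plasma cell markers were at 6.67, 8.59 and 7.29 TPM, against 19.4 to 97.7 in F1, M3 and M4. NK and innate-like markers were at 20.9, 24.2 and 24.4 TPM against 32.5 to 44.5, and endothelial markers at 4.18, 3.15 and 2.92 against 8.18 to 9.16. Mast cell markers were higher, at 2.84, 3.45 and 3.32 TPM against 0.872 to 1.15, and CD8 T cell markers too, at 13.01, 9.59 and 12.8 against 3.47 to 7.56. Epithelial markers, at 6.26, 6.14 and 4.61 against 9.25 to 27.8, and stromal markers, at 0.826, 0.501 and 0.873 against 1.18 to 2.87, were lower in M1, M2 and M5, as were the CD4 T cell markers, at 2100, 1949 and 1985 TPM against 2398 to 2431. Library M3, with the highest Nr3c1, Sgk1, Klf9, Zbtb16 and Errfi1 of the 6, also had a summed TPM of 457.1 for 6 pancreatic acinar markers, which reached at most 63.2 in GF isotype; what part these markers or the histone share play was not tested.

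**Figure D3:**
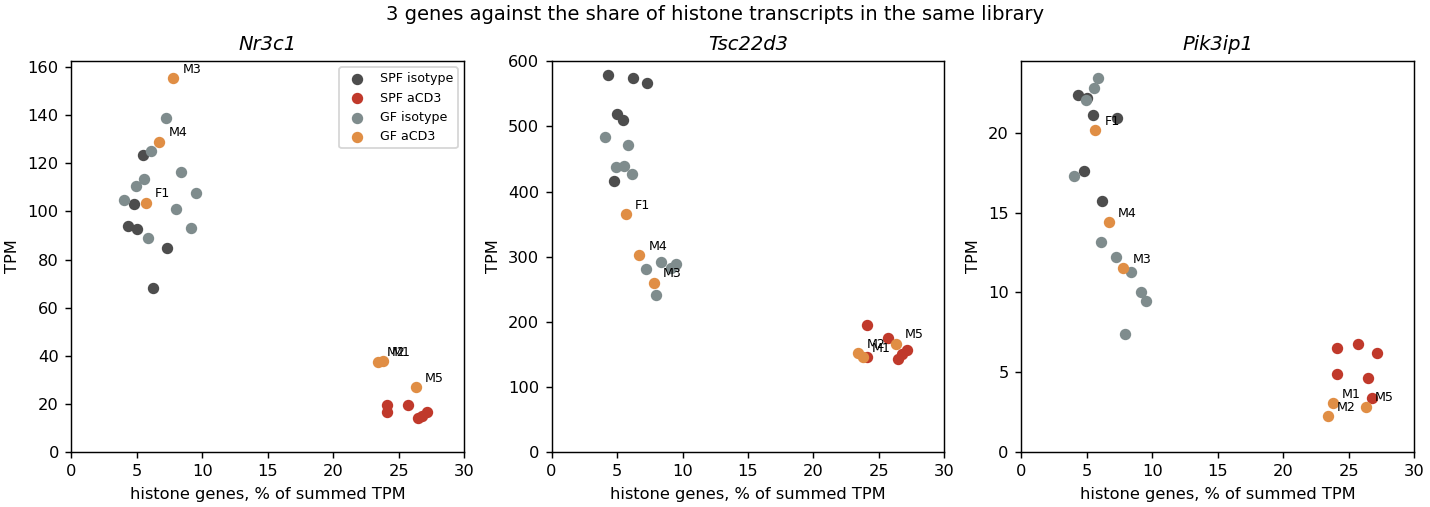
TPM of Nr3c1, Tsc22d3 and Pik3ip1 (vertical axes) against the percent of summed TPM in histone genes (horizontal axis) in each of the 28 libraries, coloured by group, with the GF aCD3 libraries named. M1, M2 and M5 lie at 23.4% to 26.3% beside the SPF aCD3 libraries, and F1, M3 and M4 at 5.66% to 7.79% beside the isotype libraries.

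The aCD3 effects in GF and SPF were compared directly as a difference of differences; the comparison shares libraries with each of the others. The effect differed for 2 of 8 genes, both with a smaller fall in GF, against 2.44% of all tested genes with a higher effect in GF. Nr3c1 differed by 1.73 (SE 0.40, limma adjusted p = 0.0232) and Tsc22d3 by 1.09 (SE 0.27, limma adjusted p = 0.0304). The same 2 genes passed after scaling, at 1.51 (limma adjusted p = 0.00897) and 0.85 (limma adjusted p = 0.0245), against 5.3% of all genes. On that scale Nr3c1 differed between GF and SPF by 0.07 under isotype and by 1.57 under aCD3. Tsc22d3 was lower in GF by -0.73 under isotype (limma adjusted p = 0.00802). Under aCD3 its difference was 0.11 (limma adjusted p = 0.627), so a higher level in GF after aCD3 was not shown for it. With array weights Tsc22d3 did not pass (0.93, limma adjusted p = 0.0771). With a block for each replicate name within a housing, neither gene passed (limma adjusted p = 0.0959 for both). Without GF aCD3 F1 or SPF aCD3 M2, Nr3c1 differed by 1.58 or 1.70 and did not pass (limma adjusted p = 0.0823 and 0.0507). Tsc22d3 did not pass without GF aCD3 F1 (0.93), M3 (1.04) or M4 (0.99), SPF aCD3 F3 (1.06), M2 (1.08) or M3 (1.09), or SPF isotype M1 (1.04) or M2 (1.07), with limma adjusted p up to 0.108. For Errfi1 (0.61, limma adjusted p = 0.0612), Klf9 (0.52, limma adjusted p = 0.0883), Pik3ip1 (0.86, limma adjusted p = 0.218), Zbtb16 (0.48, limma adjusted p = 0.310), Fkbp5 (0.12, limma adjusted p = 0.647) and Sgk1 (-0.14, limma adjusted p = 0.766) a difference was not shown. With voom on recovered reads Zbtb16 passed, at 1.35 (limma adjusted p = 0.0422). Errfi1 passed without GF aCD3 M1, M2 or M5 or SPF isotype F3 or M1 (0.61 to 0.71, limma adjusted p from 0.0153 to 0.0468), and Klf9 without GF aCD3 M2 or M5 (0.57 and 0.64, limma adjusted p = 0.0491 and 0.0168).

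Under aCD3, 5 of 8 genes were higher in GF than in SPF, against 48.9% of all tested genes called higher. Nr3c1 was higher by 1.96 (SE 0.30, limma adjusted p = 0.000119), Zbtb16 by 1.25 (SE 0.25, limma adjusted p = 0.000656) and Errfi1 by 0.67 (SE 0.15, limma adjusted p = 0.00117), and for these 3 genes 6 of 6 GF libraries exceeded every SPF library, as for 12.2% of all tested genes. Tsc22d3 (0.52, limma adjusted p = 0.0328) and Klf9 (0.37, limma adjusted p = 0.0425) overlapped between the groups. After scaling 3 of 8 were called, against 32.7% of all genes in either direction: Nr3c1 (1.57, limma adjusted p = 6.36e-05) and Zbtb16 (1.10, limma adjusted p = 0.00152) higher, and Fkbp5 lower (-0.32, limma adjusted p = 0.0387). Errfi1 was then at 0.28 (limma adjusted p = 0.125), Tsc22d3 at 0.11 and Klf9 at -0.01. Over 14 other settings the call of Tsc22d3 was lost in 10, that of Errfi1 in 3, that of Zbtb16 in 1 of 13 (1.17 with sample numbers 25 to 33, limma adjusted p = 0.0602) and that of Klf9 in 9, with 2 more that turned the sign of Klf9. The value of Zbtb16 ran from 0.47 to 2.34 over its 13 settings. Klf9 lost its call without GF aCD3 F1, M1, M3 or M4 or SPF aCD3 F3, M1, M2 or M3 (0.26 to 0.37), and Tsc22d3 without GF aCD3 F1, M3 or M4 or SPF aCD3 F1, F3, M2 or M3 (0.36 to 0.52). With the GF libraries of sample numbers 25 to 33 alone, Nr3c1 was higher by 1.81 and did not pass (limma adjusted p = 0.0836); with those of 48 to 54 it was higher by 2.08 (limma adjusted p = 0.0340). Between SPF and GF aCD3 libraries, the histone share (24.1% to 27.1% and 5.66% to 26.3%) and B and plasma cell markers (2.51 to 8.97 and 6.67 to 97.7 TPM) overlapped, while mast cell markers (3.94 to 5.32 and 0.872 to 3.45 TPM) were lower in GF without overlap; their part was not tested.

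In control mice, GF isotype against SPF isotype, 2 of 8 genes were called, against 7.17% of all tested genes in either direction. Tsc22d3 was lower in GF by -0.57 (SE 0.18, limma adjusted p = 0.0480), with 5 of 10 GF libraries below every SPF library, with 4 of 14 other settings losing the call, and lower by -0.73 after scaling (limma adjusted p = 0.00802), the 1 call of 8 there against 1.67% of all genes. Zbtb16 was higher in GF by 0.77 (SE 0.22, limma adjusted p = 0.0304), with 7 of 10 GF libraries above every SPF library, but at 0.64 it did not pass after scaling (limma adjusted p = 0.0975). Nr3c1 averaged 94.4 ± 18.5 TPM (SPF) and 110.0 ± 14.8 TPM (GF), a difference of 0.23 that did not pass (SE 0.26, limma adjusted p = 0.597). The Tsc22d3 call was lost when any of 19 of the 28 libraries was left out (-0.61 to -0.52, limma adjusted p up to 0.107), and that of Zbtb16 without GF isotype F2 or F3 or SPF isotype F1, F3 or M2 (0.68 to 0.75, limma adjusted p up to 0.098). Summed NK and innate-like lymphoid markers overlapped between the groups, at 49.3 to 72.3 and 21.6 to 93.9 TPM, as did B and plasma cell markers, at 95.7 to 272.4 and 10.99 to 114.4 TPM, while stromal markers, at 4.42 to 42.1 and 0.384 to 2.82 TPM, were lower in GF without overlap; their part was not tested.

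The sample number range split the GF isotype libraries. Comparing 48 to 54 with 25 to 33, Pik3ip1 was higher by 0.96 (SE 0.10, limma adjusted p = 0.00152), Tsc22d3 by 0.62 (SE 0.13, limma adjusted p = 0.0202) and Fkbp5 by 0.37 (SE 0.10, limma adjusted p = 0.0445), 3 of 8 genes against 10.3% of all tested genes. Pik3ip1 ran from 17.3 to 23.5 TPM in the 4 libraries of 48 to 54 and from 7.41 to 13.2 TPM in the 6 of 25 to 33, with no overlap. Against SPF isotype, Tsc22d3 was lower by -0.82 with range 25 to 33 (limma adjusted p = 0.00348) and at -0.20 with range 48 to 54 (limma adjusted p = 0.242). Pik3ip1 was lower by -0.87 (limma adjusted p = 0.00373) and at 0.10 (limma adjusted p = 0.642). The fall of Tsc22d3 in GF isotype thus passed in 1 of the 2 ranges. Summed myeloid markers parted the ranges too, at 4.48 to 12.5 TPM in 48 to 54 and 0.101 to 1.23 TPM in 25 to 33. So did endothelial markers, at 8.84 to 11.3 and 6.47 to 8.20 TPM, and the histone share, at 4.05% to 5.85% and 6.11% to 9.54%. The other marker lists overlapped, and the part of any of these was not tested.

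Between the sexes, over all groups, 0 of 8 genes passed in limma and 13 genes of 12182 did, with 2 of 8 at an unadjusted p under 0.05 against 4.47% of all genes. These were Errfi1, higher in males by 0.44 (SE 0.10, limma adjusted p = 0.112), and Zbtb16, lower in males by -0.59 (SE 0.17, limma adjusted p = 0.548). In GF isotype Zbtb16 was 3.37 to 8.74 TPM in the 5 females and 1.21 to 3.22 TPM in the 5 males, and the sexes did not overlap there, while in SPF isotype they did, at 1.58 to 2.16 and 0.951 to 1.87 TPM. Summed NK and innate-like lymphoid markers in GF isotype were at 55.7 to 93.9 TPM in females and, in males, at 21.6 to 38.2 TPM except for 72.8 in M5; their part was not tested.

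Other genes of the pathway were taken from 4 lists chosen with earlier results of these data known. Of the receptor's chaperones and cofactors, 19 of 20 listed genes were tested, and in SPF 12 were lower and 0 higher after aCD3, against 50.7% of all tested genes lower. The lowest were the coactivators Ncoa1, 6.03 ± 1.01 to 1.91 ± 0.201 TPM (n = 6 each; -1.26, limma adjusted p = 1.06e-05), and Ncoa2, 17.6 ± 2.96 to 7.48 ± 0.582 TPM (-1.12, limma adjusted p = 1.81e-05). Their median change was -0.42, and after scaling 7 were lower and 2 higher, against 29.8% and 30.2% of all genes, with a median of -0.02. The 2 higher genes, named after their values were seen, were the chaperone regulator Bag1 (0.57, limma adjusted p = 0.000122) and the phosphatase gene Ppp5c (0.45, limma adjusted p = 0.000798).

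Of 11 genes of steroid synthesis, conversion and export, 6 were tested, and 5 of these were lower in SPF aCD3 as deposited and after scaling, against 50.7% and 29.8% of all tested genes, with medians of -1.19 and -0.93 against -0.35 and -0.01. The drug exporters Abcb1a (37.7 ± 6.87 to 8.32 ± 1.83 TPM; -2.06, limma adjusted p = 1.81e-05) and Abcb1b (13.0 ± 4.55 to 2.65 ± 0.202 TPM; -1.88, limma adjusted p = 1.64e-05), which pump steroids among other compounds, changed most. Cyp11b1 and Hsd3b1, which encode enzymes of steroid synthesis, were listed at 0 in all 28 libraries, and Cyp11a1 did not exceed 1.52 TPM.

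Of 26 tested genes among other known induced targets, 15 were lower and 4 higher in SPF aCD3, against 50.7% and 14.2% of all tested genes. After scaling 14 were lower and 7 higher, against 29.8% and 30.2%. The medians were -0.75 and -0.48. The metallothionein genes Mt1, from 3.15 ± 3.20 to 86.8 ± 16.9 TPM (4.83, limma adjusted p = 9.26e-07), and Mt2, from 1.35 ± 1.12 to 37.9 ± 12.5 TPM (4.11, limma adjusted p = 1.59e-05), were the highest; Cxcr4 and Ddit4, named after their values were seen, were the other 2. At the other end were the IL-7 receptor gene Il7r, from 377.9 ± 76.5 to 33.7 ± 8.43 TPM (-3.46, limma adjusted p = 3.13e-05), and the phosphatase gene Dusp1, from 3254 ± 287.4 to 709.9 ± 92.0 TPM (-2.20, limma adjusted p = 4.85e-07).

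**Figure D4:**
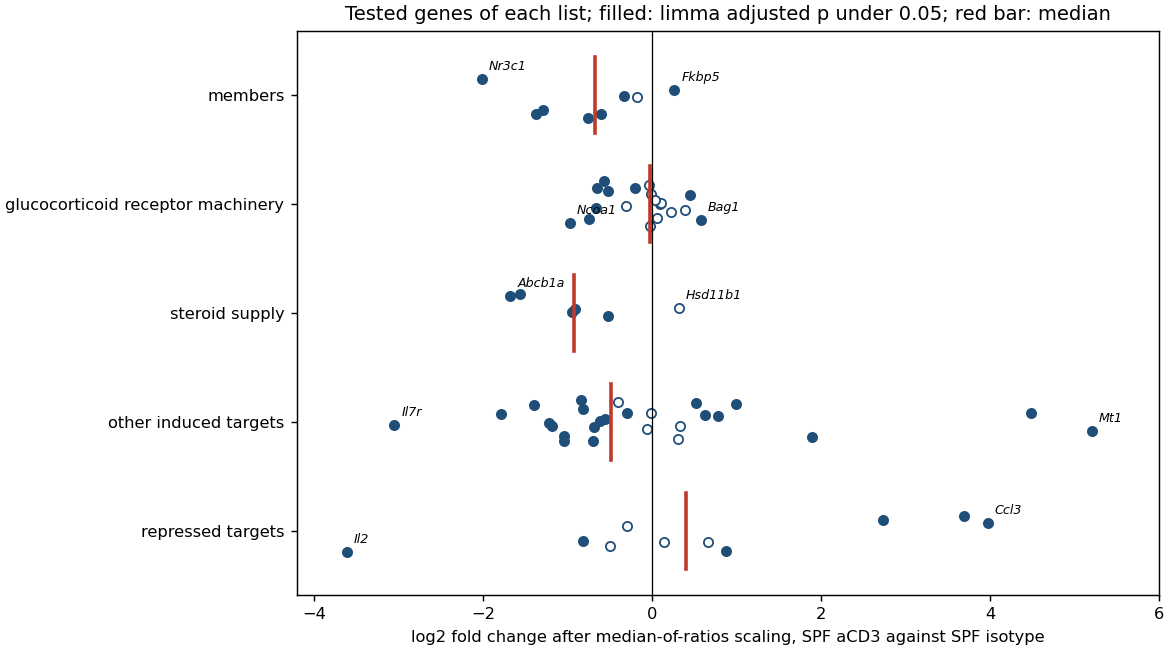
Log2 fold change after median-of-ratios scaling in SPF aCD3 against SPF isotype (horizontal axis) for each tested gene of the 8 members and of 4 pathway lists (rows); filled points have a limma adjusted p under 0.05, red bars are list medians, and the genes at both ends of each list are named. Of the members, Nr3c1 is lowest at -2.01 and Fkbp5 highest at 0.26.

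Of 15 genes that the receptor is known to repress, 10 were tested, and 4 were higher and 2 lower in SPF aCD3, as deposited and after scaling, where 14.2% and 30.2% of all tested genes were higher and 50.7% and 29.8% lower. The chemokine genes Ccl3 (34.2 ± 12.5 to 397.2 ± 66.5 TPM; 3.56, limma adjusted p = 5.23e-05) and Ccl4 (50.3 ± 23.6 to 447.7 ± 68.3 TPM; 3.27, limma adjusted p = 9.67e-06) rose most, with Il17a and Ifng, named after their values were seen, the other 2. The cytokine genes Il2 (16.8 ± 3.45 to 0.341 ± 0.302 TPM; -3.74, limma adjusted p = 3.51e-06) and Tnf (81.0 ± 12.8 to 34.4 ± 7.61 TPM; -1.23, limma adjusted p = 4.28e-06) fell.

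In GF, 0 of 19 receptor cofactors and 0 of 6 steroid genes passed in limma, with 6 and 3 at an unadjusted p under 0.05 against 35.7% of all genes. Of the induced targets 5 were lower, Il7r (-1.77, limma adjusted p = 0.0499), Txnip (-0.97, limma adjusted p = 0.0481), Per2, Dusp1 and Sesn1, of which the last 3 were named after their values were seen, and the same 5 were lower after scaling, against 4.61% and 4.02% of all tested genes called lower. Of the repressed targets 1 was lower, Tnf (-0.50, limma adjusted p = 0.0499), and after scaling Il2 (-1.32, limma adjusted p = 0.0487). As for the members, leaving out any of 25 of the 28 libraries, all but GF aCD3 F1, M3 and M4, left 0 genes called here as deposited. In the difference of the aCD3 effects 0 of 19, 0 of 6, 3 of 26 and 0 of 10 genes of the 4 lists passed in limma, against 3.48% of all tested genes, with 8, 4, 11 and 6 at an unadjusted p under 0.05 against 32.1%. After scaling 3, 1, 4 and 3 passed, against 11.3% of all genes.

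Outside the 8 members, the tested genes with the profile most like that of a member were found as the smallest root mean square difference between standardized, scaled log2 profiles over the 28 libraries, among 10753 genes. For Nr3c1 these were Cd226 (0.163), Clk1 (0.207) and Cers4 (0.210), against a median of 1.40 over the genes compared. Cd226, which encodes a receptor of T and NK cells, averaged 57.3 and 7.24 TPM in the isotype and aCD3 libraries of SPF mice and 70.5 and 46.2 TPM in those of GF mice. For Tsc22d3 they were Zfp974 (0.487), Sod1 (0.511) and Il7r (0.514), and for Fkbp5 Ccl20 (0.562), Ndst1 (0.611) and B4galnt4 (0.617). Among the members, the pair most alike was Tsc22d3 and Pik3ip1 (0.493), closer than Nr3c1 was to any member (0.753 to Zbtb16 at the least). These distances describe 28 libraries that share 4 groups.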

How the data were processed

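Messenger RNA levels were measured by RNA sequencing in 28 libraries of CD4+ T cells sorted from small intestinal lamina propria, in 4 groups. The authors' deposited table holds TPM per gene, made with HOMER's analyzeRepeats with transcripts of a gene condensed, on mm10, per the file headers. The aligner, its version, and strand handling are not given in the sources used here; the labels name polyA RNA as the molecule, while the design text names a total RNA kit. The length behind each value equals the genomic span, introns included, in 99.24% of genes, so TPM here is per span. Another 26 TPM columns matched no sample and were not used. TPM times length gave whole reads, within 0.1 of a read, for 100.0% of low values, and these served as depth. Such reads are not independent molecules, so depth speaks to counting error only.

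The test was limma 3.58.1 (R 4.3.3) on log2(TPM + 1), with 4 group means and a term for sex over 28 libraries, a mean-dependent prior, and Benjamini-Hochberg adjustment over 12182 genes that reached 1 TPM in 6 or more libraries, in each of 5 comparisons, at 0.05. Tables and figures used Python 3.11.15, pandas 2.3.3, NumPy 2.4.6 and matplotlib 3.10.9. On simulated data for the SPF comparison, limma recovered 182 of 198 changed genes (91.9%) among 12476 tested and called 11 of 12278 unchanged ones. The simulation changed few genes, all well covered, with the same dispersion for every gene and no shift of most genes. In the real comparison 7898 of 12182 genes were called, so these rates do not carry over to it. Alternatives were other scalings (median of ratios, quantile, without Rn45s and histone genes), voom on recovered reads, array weights, pseudocounts of 0.1 and 5, other filters, no sex term, only the 2 groups compared, a replicate block, sample number ranges, and leaving out each library. The ranges against SPF were added after seeing the data.

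All 8 members are reported; of each pathway list the text names up to 2 highest and 2 lowest called genes per comparison, and for 3 members the 3 genes most alike in profile. Members and lists were chosen with earlier results of these data known. The labels do not say whether replicate numbers pair the samples, so a block on them was used as an alternative only.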

Additional observations from a re-analysis of the deposited data

Results flagged for a closer look

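The aCD3 effect differed between GF and SPF mice for 2 of the 8 genes, by a test of the difference of the 2 effects on the log2(TPM + 1) scale, against 2.44% of all tested genes with a higher effect in GF. For Nr3c1 the effect in GF minus that in SPF was 1.735 (SE 0.40, limma adjusted p = 0.0232, n = 28 libraries), and for Tsc22d3 it was 1.091 (SE 0.27, limma adjusted p = 0.0304). Both calls were lost without GF aCD3 F1 (1.58 and 0.93, limma adjusted p = 0.0823 and 0.108) and without SPF aCD3 M2 (1.70 and 1.08, limma adjusted p = 0.0507 and 0.0563). That of Tsc22d3 was also lost with array weights (0.93, limma adjusted p = 0.0771) and without any of 6 other libraries. With the replicate block neither call was kept (limma adjusted p = 0.0959 for both). In both cases the GF aCD3 libraries M1, M2 and M5 held the lowest values of their group. For Tsc22d3 the GF minus SPF difference was -0.57 under isotype (limma adjusted p = 0.0480) and 0.52 under aCD3 (limma adjusted p = 0.0328). After median-of-ratios scaling these were -0.73 and 0.11 (limma adjusted p = 0.00802 and 0.627). Dixon's test for 1 outlying library found none in 32 sets of a gene and a group, where chance at 5% gives about 1.6; it does not look for groups that split into several libraries each.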

How the results depend on the processing

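Values are log2 differences unless called counts, and counts are of genes past a limma adjusted p of 0.05. Over 523 values of single members under the settings other than leaving out a library, 406 kept direction and side of the threshold, 69 kept the direction and lost the call, 6 gained one and 42 changed sign; the cause was not tested. Zbtb16 gave no value with a filter of 5 TPM. By the library with the fewest reads, depth was lowest for Pik3ip1, with 51 to 660 reads per library, and Zbtb16, with 70 to 3062. Sgk1, with 146 to 675, had fewer reads than Zbtb16 in many libraries.

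In SPF, Fkbp5 turned to 0.26 with median of ratios, 0.19 with quantile normalization, 0.24 with voom and 0.13 without Rn45s and histone genes; the total of 7898 genes moved by under 1.5 times, but its split of 1726 higher and 6172 lower became 3680 and 3628 with median of ratios, 3253 and 3846 with quantile normalization, 3431 and 3732 with voom and 2788 and 4322 without Rn45s and histone genes, and leaving out a library gave 7426 to 8060 genes and 6 to 7 members.

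In GF, 862 genes and 3 members became 1 and 0 with sample numbers 25 to 33 only, 1 and 0 with 48 to 54 only, and 0 and 0 with the range as a covariate, no filter, a pseudocount of 0.1, only the 2 groups compared or the replicate block. They became 3636 and 5 with array weights and 2472 and 5 with no sex term. Members were 0 with median of ratios, 1 with voom and 0 without Rn45s and histone genes. Fkbp5 turned to 0.15 with median of ratios, 0.0075 with the 2 groups, 0.14 with quantile normalization, 0.14 with voom and 0.11 without Rn45s and histone genes, and Errfi1 to 0.046 with median of ratios, 0.030 with no sex term, 0.0075 with quantile normalization, 0.031 with voom and 0.0028 without Rn45s and histone genes. Leaving out a library gave 0 (without GF aCD3 M1, among others) to 4213 (without GF aCD3 M3) genes, 0 to 5 members and -0.067 to 0.096 for Fkbp5.

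Between GF and SPF isotype, 874 genes and 2 members became 1462 genes with 25 to 33, 330 and 0 with 48 to 54, 204 and 1 with median of ratios, and 178 and 0 with quantile normalization. Genes were 1904 with array weights, 1812 with the 2 groups, 368 with voom and 2390 without Rn45s and histone genes; members were 1 with a filter of 5 TPM, 1 with no filter and 0 with no sex term. With 48 to 54, Fkbp5 turned to 0.16, Pik3ip1 to 0.096 and Errfi1 to -0.0094; Errfi1 turned to -0.015 with array weights, -0.10 with median of ratios, -0.12 with quantile normalization and -0.039 with voom. Leaving out a library gave 325 (without SPF isotype F3; 569 without F1) to 1137 genes, 0 to 2 members and -0.055 to 0.14 for Errfi1.

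Between GF and SPF aCD3, 6496 genes and 5 members became 128 and 0 with 25 to 33, 3680 and 3 with array weights, 3988 and 3 with median of ratios and 3348 and 2 with quantile normalization. Members were 3 with no filter, the 2 groups, the replicate block, voom, and without Rn45s and histone genes. Fkbp5, Sgk1 and Pik3ip1 turned to -0.13, -0.082 and -0.34 with 25 to 33 and to -0.057, -0.088 and -0.041 with array weights. Fkbp5, Sgk1 and Klf9 turned to -0.32, -0.32 and -0.0075 with median of ratios and -0.28, -0.22 and -0.0033 with quantile normalization. Fkbp5 was -0.080 with the replicate block, and Fkbp5 and Sgk1 were -0.25 and -0.20 with voom and -0.037 and -0.031 without Rn45s and histone genes. Leaving out a library gave 4880 to 7231 genes, 3 to 5 members and -0.094 to 0.18 for Sgk1.

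For the difference of the aCD3 effects, 424 genes and 2 members became 159 and 1 with array weights and 17 and 0 with the replicate block. Genes were 1382 with median of ratios, 233 with no filter, 774 and 273 with pseudocounts of 0.1 and 5, 791 with quantile normalization and 1626 with voom. Fkbp5 turned to -0.11, -0.052, -0.10 and -0.016 with median of ratios, quantile normalization, voom and without Rn45s and histone genes. Leaving out a library gave 32 (without GF aCD3 F1) to 3187 (without GF aCD3 M5) genes and 0 to 4 members.

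Same-named libraries deviated together with r from -0.031 to 0.10 in SPF and -0.21 to 0.20 in GF, and 1 of 6 and 0 of 6 matched their own name best. These low correlations do not settle whether the names pair samples, which the labels do not state. With the replicate block 7589 genes and 7 members were called in SPF, and Nr3c1 and Tsc22d3 lost their calls in the difference of effects (1.74 and 1.12, limma adjusted p = 0.0959 for both).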
